A study of Mus musculus with 30 samples.

Results

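The extracellular matrix of adipose tissue and liver holds basement membranes and a looser interstitial matrix. The 35 genes described here encode glycoproteins and proteoglycans of both: 9 laminin chains, 4 nidogen and heparan sulfate proteoglycan genes, 6 small leucine-rich proteoglycan and versican genes, 5 genes of elastic fibres and microfibrils, and 11 adhesive or matricellular glycoproteins. They were chosen by gene name, with earlier results of these data known, and all 35 were found among the 41549 genes of the deposited table.

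The tissues came from male LFABP-/- mice, which lack the liver fatty acid binding protein gene Fabp1 in the whole body, and from WT males, both on a C57Bl/6J background. From 2 months of age both genotypes were housed 2 or 3 to a cage and received a diet with 45% of its energy as fat, rich in saturated fat, for 12 weeks, and food was removed for 4 h before collection. Inguinal white adipose tissue (iWAT, a subcutaneous white fat depot), interscapular brown adipose tissue (iBAT) and liver were taken from the same 5 LFABP-/- and 5 WT mice, so that 30 libraries make 6 groups of 5. The study asked how loss of LFABP, a protein of liver and intestine, changes fat tissue in diet-induced obesity, and the matrix is a structure that fat cells must remodel as a depot grows.

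A basement membrane is a thin sheet that surrounds every adipocyte and underlies endothelium. Laminins, each a trimer of an alpha, a beta and a gamma chain, polymerise into one network, collagen IV forms another, and nidogens and the heparan sulfate proteoglycan perlecan tie them together. In the interstitial matrix, decorin and its relatives bind collagen fibrils, fibrillin and fibulins organise elastic fibres, and matricellular proteins such as thrombospondins, periostin and osteopontin act on cells more than they bear load.

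Values are on the TPM scale (a share of all transcripts of a library, corrected for gene length), rounded to 1 decimal. Genotypes were compared within a tissue on log2(TPM + 0.5) with limma (two-sided) over all genes with a mean of at least 1 TPM, and a gene was called higher or lower at a Benjamini-Hochberg adjusted p under 0.1. Log2 differences are LFABP-/- minus WT on that scale, which understates the change of low genes, and are given with their standard error (SE). Exact two-sided permutation tests of single genes ran over every assignment of 10 libraries to groups of 5, and the smallest p they can give is 0.0079.

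Some libraries stood apart. Fabp1 itself read 0.2 to 51.8 TPM in LFABP-/- livers and 9165.5 to 12697.6 TPM in WT livers. In iWAT the library labelled LFABP-/- replicate 1 held 196.1 TPM of Fabp1, which goes against its label, and the 15 hepatocyte markers stood at a median of 2.27% of their liver level. The same markers reached 1.28% to 1.86% in iBAT of LFABP-/- replicates 1 to 3. Fabp1 read 0.4 to 21.2 TPM in LFABP-/- iBAT (median 13.1) and 0.2 to 8.7 TPM in WT iBAT (median 1.4), so the deleted gene went against the label there too. Lymphocyte markers summed to 54.2 to 2633 TPM in LFABP-/- iWAT and 29.8 to 3425 TPM in WT iWAT. The library names carry a prefix, G30 or G32, whose meaning the labels do not give; G30 marks LFABP-/- replicates 1 and 2 and WT replicates 1 to 3. The iWAT libraries of WT replicates 4 and 5 carry G30 although the other tissues of the same mice carry G32, and were counted as G32. The iWAT library of LFABP-/- replicate 2 has neither prefix in its name and was counted as G30, the prefix of that mouse's iBAT and liver libraries.

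In iWAT, 4 matrix genes were lower in LFABP-/- mice and 0 were higher. They were Lama2, the laminin alpha2 chain of muscle and peripheral nerve basement membranes, Dcn (decorin), Postn (periostin) and Ecm1 (extracellular matrix protein 1). Those 4 are 11.4% of the 35 members, all of which were tested, against 0.77% of the 14668 genes tested that were called lower and 0.682% that were called higher. The members were chosen with earlier results of these data known. The study had reported Lama2, Postn, Ecm1 and Spp1 as lower and Thbs1 as higher in LFABP-/- iWAT. The shares are therefore a description and not a test of the list. The median log2 difference was -0.21 over the members and 0.05 over all genes tested. Of the 35 members 29 were negative, against 39.4% of all genes tested. At an unadjusted p under 0.05, 10 members were lower and 1 was higher, against 4.99% and 5.39% of all genes.

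The 4 calls rested near the threshold. Without the library labelled LFABP-/- replicate 1, Lama2 (-0.81, limma adjusted p = 0.161), Dcn (-0.48, 0.179), Postn (-0.88, 0.13) and Ecm1 (-0.77, 0.165) kept their direction and were not called. Without LFABP-/- replicate 1, 2 or 4, or without WT replicate 2, 3 or 5, 0 members were called lower. Without LFABP-/- replicate 3 only Dcn was called lower, without LFABP-/- replicate 5 Lama2 and Tnxb, without WT replicate 1 Ecm1 and Spp1, and without WT replicate 4 there were 6, namely Lama2, Lamb1, Lamc3, Dcn, Postn and Ecm1. Without the library labelled LFABP-/- replicate 1 Thbs1 was called higher (1.11, limma adjusted p = 0.0799). Within the prefix G30 (2 LFABP-/- against 3 WT mice) 32 of the 35 members were negative with a median of -0.55, whereas within G32 (3 against 2) 14 were negative with a median of 0.07. The medians of all genes were -0.04 within G30 and 0.08 within G32. Of all genes 56.2% were negative within G30 and 37.2% within G32. With a term for the prefix, and with median-ratio scaling, 0 members were called lower.

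**Figure D1:**
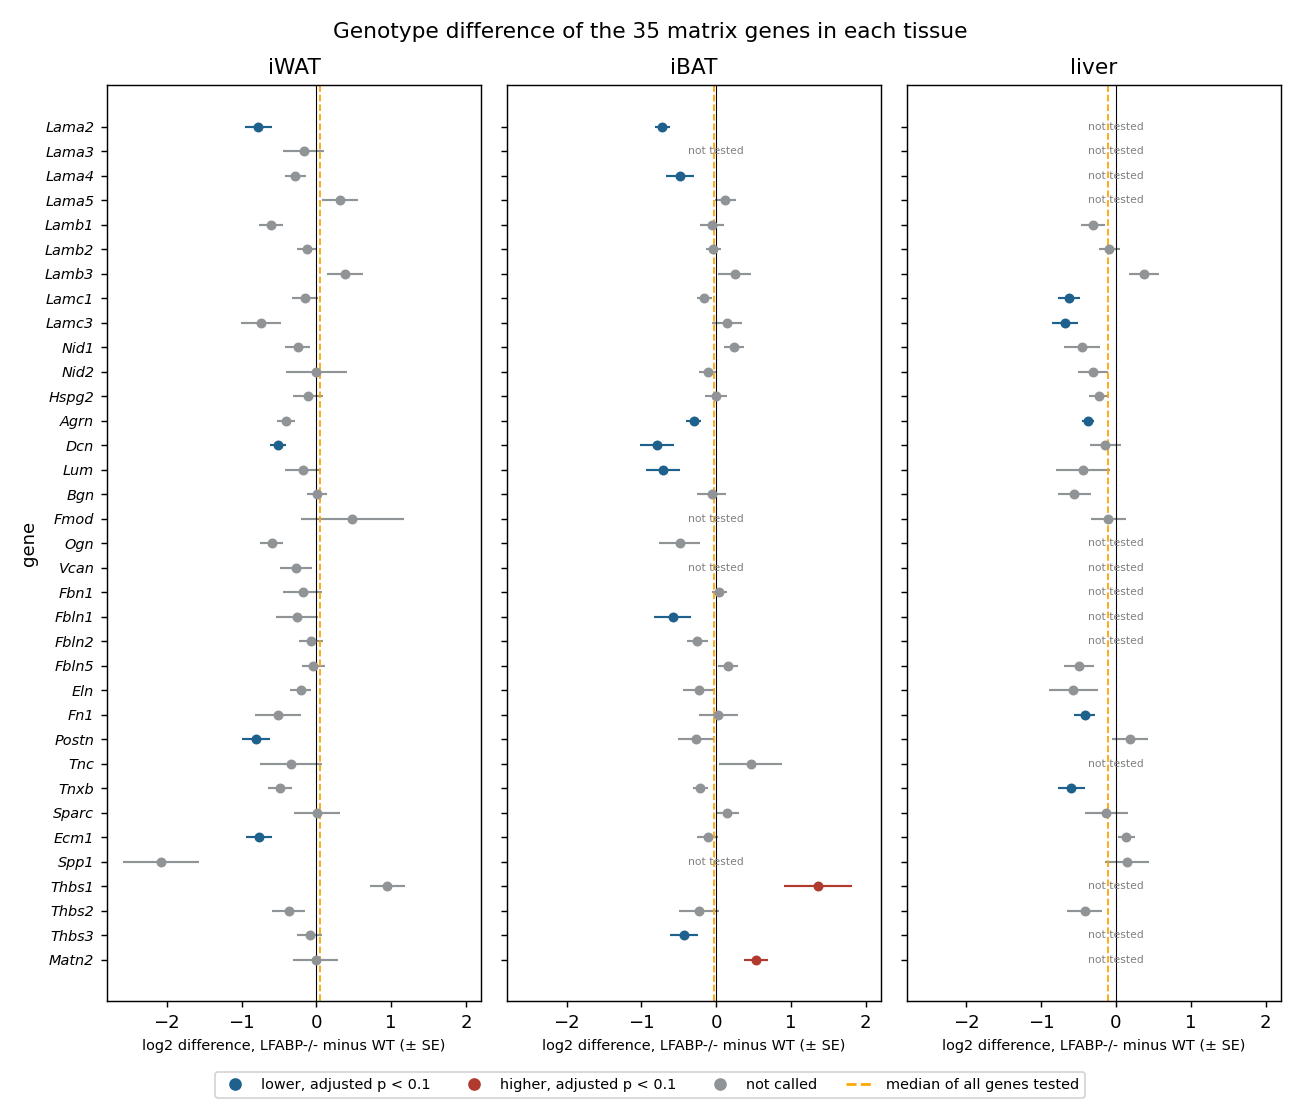
Log2 difference between LFABP-/- and WT mice (x axis, on log2(TPM + 0.5), with its SE) for the 35 matrix genes in iWAT, iBAT and liver. Blue points were called lower, red points higher and grey points not called; the dashed line is the median of all genes tested in that tissue, at 0.05 in iWAT, -0.03 in iBAT and -0.10 in liver.

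Lama2 had 9.7, 7.6, 8.9, 6.9 and 12.6 TPM in LFABP-/- iWAT (replicates 1 to 5), against 16.7, 18.8, 15.9, 11.6 and 16.5 TPM in WT iWAT. The groups overlapped only where LFABP-/- replicate 5 lay above WT replicate 4. The log2 difference was -0.78 (SE 0.18, limma adjusted p = 0.0949), and it was -0.95 within G30 and -0.56 within G32. Lama2 lies on chr10:26980036-27619758 of GRCm38, on the minus strand. Of the other genes lower in iWAT, Dcn lies on chr10:97479609-97518143 (plus strand), Postn on chr3:54361109-54391037 (plus strand) and Ecm1 on chr3:95734147-95739569 (minus strand), and Agrn, a gene tested in every tissue, is on chr4:156165290-156197488 (minus strand).

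Among the other alpha chains, Lama4, the chain of adipocyte and endothelial basement membranes, averaged 55.5 ± 9.17 TPM in LFABP-/- and 67.4 ± 10.6 TPM in WT iWAT (SD, n = 5 each, not called). Lama5, a chain of epithelial and vascular basement membranes, averaged 21.8 ± 6.79 TPM in LFABP-/- and 17.04 ± 3.67 TPM in WT iWAT (not called). The epithelial chain Lama3 stayed at or under 2.6 TPM. Lama2 made up 10.4 ± 1.76% of summed alpha chain TPM in LFABP-/- iWAT, between 8% and 12.5% in the 5 libraries, against 15.5 ± 1.37% in WT iWAT, between 13.7% and 17.3%. The 2 ranges did not overlap, but the share is built from the Lama2 values above, which did overlap. It is no separate evidence of a difference and was not tested. Lama4 held 63.2 ± 6.29% in LFABP-/- and 65.7 ± 3.49% in WT, and Lama5 24.7 ± 7.19% in LFABP-/- and 16.8 ± 3.81% in WT.

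Lamb1, the beta1 chain, had 76, 85.9, 65.5, 55.4 and 89.1 TPM in LFABP-/- iWAT and 103.9, 141.3, 118, 85.2 and 118.7 TPM in WT iWAT, with WT replicate 4 the one WT library inside the LFABP-/- range. Its log2 difference of -0.61 (SE 0.16) was not called (limma adjusted p = 0.163). Lamc3, the gamma3 chain, had 6.2, 5.5, 4.8, 3.8 and 5.8 TPM in LFABP-/- and 8.6, 13.1, 7.5, 4.8 and 13.9 TPM in WT iWAT (log2 difference -0.74, SE 0.27, limma adjusted p = 0.321). For both genes the WT libraries spread over a wider range than the LFABP-/- libraries. Lamb2 averaged 120 ± 18.2 TPM in LFABP-/- and 132 ± 20.6 TPM in WT, and Lamc1, the gamma chain of most laminins, 154 ± 38.4 TPM in LFABP-/- and 168 ± 23.6 TPM in WT. Lamb3, an epithelial beta chain, averaged 5.98 ± 0.884 TPM in LFABP-/- and 4.72 ± 2.06 TPM in WT, and none of these 3 was called. The beta1 chain held 37 ± 5.16% of beta chain TPM in LFABP-/- and 45.3 ± 4.73% in WT iWAT, and the beta2 chain 60 ± 4.8% in LFABP-/- and 52.8 ± 3.95% in WT iWAT.

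**Figure D2:**
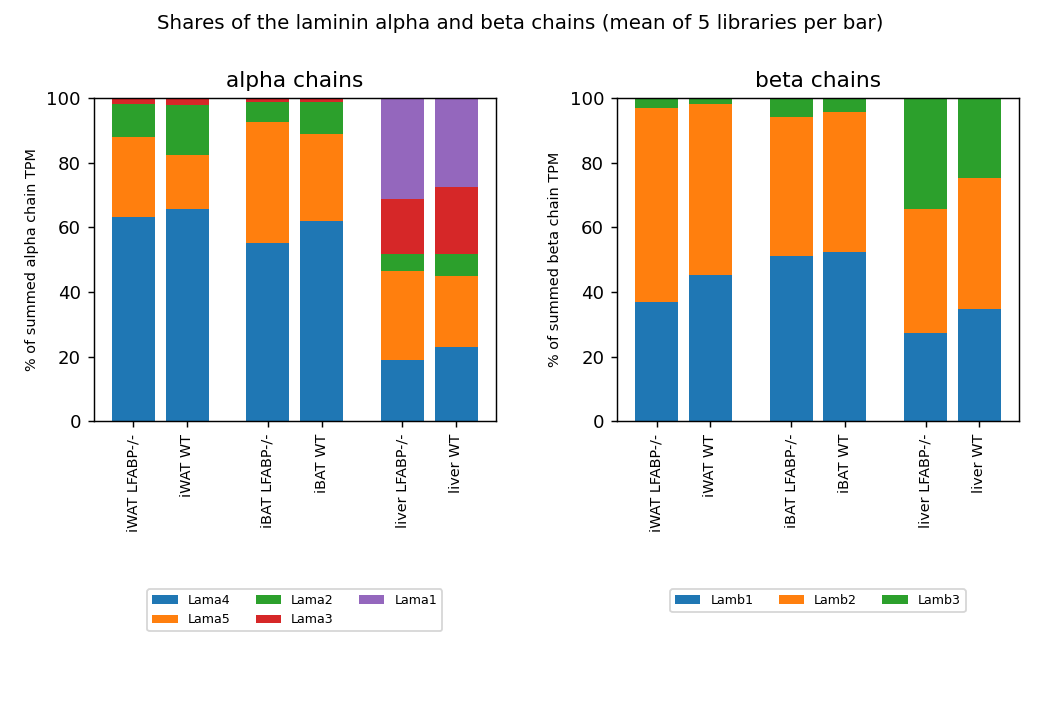
Mean share (y axis, percent) of each chain in the summed TPM of laminin alpha chains and of beta chains, for LFABP-/- and WT mice in each tissue (5 libraries a bar). Lama1, which is not among the 35 genes, completes the alpha chain sum; Lama2 is the alpha chain whose iWAT share was 10.4% in LFABP-/- and 15.5% in WT mice, and in liver Lama1 and Lamb3 hold large shares of low totals.

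Of the genes that join the networks, Agrn (agrin, a heparan sulfate proteoglycan best known from the neuromuscular junction) had 14.4, 16.1, 20.3, 21.5 and 17.6 TPM in LFABP-/- iWAT and 26.9, 23.3, 24.1, 21.9 and 23.3 TPM in WT iWAT. The groups did not overlap (exact permutation p = 0.00794), but the difference of -0.41 (SE 0.12) was not called (limma adjusted p = 0.202). It was -0.68 within G30 and -0.19 within G32. In iWAT 4 members had all LFABP-/- libraries under all WT libraries, against 1.66% of all genes tested, and 1 member all above, against 1.45%.

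The abundant linkers Nid1 and Hspg2 were not called. Nid1 (nidogen 1) had 368, 311.7, 327.7, 354 and 500.4 TPM in LFABP-/- and 580, 500.7, 413.3, 332.1 and 400 TPM in WT iWAT. Hspg2 (perlecan) had 198.9, 164.5, 202.8, 267.6 and 304.4 TPM in LFABP-/- and 331.6, 274.2, 217.1, 183.8 and 217.8 TPM in WT iWAT. In both the highest LFABP-/- library was replicate 5 and the highest WT library replicate 1. Nid2 ranged from 26.4 to 121.8 TPM in LFABP-/- and from 35.6 to 120.3 TPM in WT iWAT.

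Dcn, which binds collagen fibrils and transforming growth factor beta, was among the members with the highest values and had 204.4, 186, 263.8, 201.6 and 254.5 TPM in LFABP-/- iWAT against 307.6, 331.4, 332.2, 281.4 and 316.6 TPM in WT iWAT. Every LFABP-/- library lay under every WT library (log2 difference -0.51, SE 0.11, limma adjusted p = 0.0891, exact permutation p = 0.00794). The within-prefix differences were -0.73 in G30 and -0.32 in G32. Ogn (osteoglycin), of the same protein family, had 46.5, 35.4, 53.9, 44.4 and 63.1 TPM in LFABP-/- and 93.9, 70.8, 73.2, 60.9 and 68.9 TPM in WT iWAT and was not called (-0.60, SE 0.16, limma adjusted p = 0.162). Biglycan did not move with decorin: Bgn averaged 158 ± 15.2 TPM in LFABP-/- and 158 ± 26.4 TPM in WT iWAT. Lum (lumican) averaged 64.6 ± 18.03 TPM in LFABP-/- and 73.5 ± 19.3 TPM in WT, and Fmod (fibromodulin) spread from 4.3 to 22.4 TPM in LFABP-/- and from 3.3 to 32.9 TPM in WT iWAT. Fmod read 12.9 TPM or more in the 5 libraries with the highest lymphocyte markers and 4.8 TPM or less in the others, and the part of these transcripts in its spread was not tested. Vcan (versican), a large hyaluronan-binding proteoglycan, read 1.8 to 4.0 TPM.

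None of the 5 elastic fibre genes was called in iWAT. Their log2 differences were all negative, against 39.4% of all genes tested, and their median was -0.18. Eln (elastin) averaged 55.2 ± 6.79 TPM in LFABP-/- and 64.2 ± 11.3 TPM in WT, and Fbn1 (fibrillin 1), the core of microfibrils, 31.96 ± 14.2 TPM in LFABP-/- and 35.04 ± 8.74 TPM in WT. Of the fibulins, which link elastin to microfibrils and basement membranes, Fbln2 averaged 76 ± 15.5 TPM in LFABP-/- and 79.3 ± 12.1 TPM in WT, Fbln5 26.1 ± 5.33 TPM in LFABP-/- and 26.6 ± 3.64 TPM in WT, and Fbln1 16.9 ± 6.45 TPM in LFABP-/- and 19.8 ± 6.33 TPM in WT.

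Of the adhesive and matricellular glycoproteins, Ecm1 had the smallest p of the 35. It had 122.7, 114.2, 144.8, 102.4 and 146.6 TPM in LFABP-/- iWAT against 194.1, 248.6, 288.1, 158.2 and 204.2 TPM in WT iWAT, with no overlap (log2 difference -0.77, SE 0.17, limma adjusted p = 0.0829). Within prefixes it was -1.02 in G30 and -0.47 in G32. Postn, which is secreted by stromal cells into collagen-rich matrix, had 36.9, 29.3, 27.9, 23.8 and 35.3 TPM in LFABP-/- iWAT and 48.7, 68.2, 64.4, 35.9 and 56.8 TPM in WT iWAT, where WT replicate 4 lay inside the LFABP-/- range (-0.81, SE 0.19, limma adjusted p = 0.0978). Tnxb (tenascin X), a collagen-associated glycoprotein of connective tissue, had 44.3, 46, 66.2, 55.2 and 82.8 TPM in LFABP-/- and 85.6, 78.3, 79.2, 74.5 and 84.9 TPM in WT iWAT and was not called (-0.49, SE 0.16, limma adjusted p = 0.267).

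The widest difference belonged to Spp1 (osteopontin, a glycoprotein made by macrophages in obese fat). It had 3.6, 2.4, 5.9, 3.8 and 2.4 TPM in LFABP-/- iWAT against 6.1, 12.8, 53.1, 25.1 and 10.3 TPM in WT iWAT. The groups did not overlap, although LFABP-/- replicate 3 and WT replicate 1 lay close together, and WT replicate 3 alone held almost as much as the other WT libraries summed. The difference of -2.08 (SE 0.51) was not called (limma adjusted p = 0.122), and leaving out 1 library gave adjusted p between 0.0554 and 0.243. The highest WT values were those of replicates 3 and 4, which held the most lymphocyte transcripts of that group. Without the 5 lymphocyte-rich libraries the difference was -1.51 (limma adjusted p = 0.292), and with lymphocyte markers as a covariate -2.36 (0.014). Of 19 macrophage markers tested in iWAT 18 were negative, against 39.4% of all genes, 2 were called lower and the median was -0.55. The sum of the 20 listed was 3412 to 4662 TPM in LFABP-/- and 4148 to 6080 TPM in WT iWAT, but the list holds Lpl, which adipocytes also express. The mean of log2(TPM + 0.5) over the list was 5.14, 5.1, 5.47, 5.41 and 5.21 in LFABP-/- iWAT (replicates 1 to 5). In WT iWAT it was 5.41, 5.55, 6.42, 6.23 and 5.5, which ranks the WT libraries in the order of Spp1. The part of macrophage and lymphocyte transcripts in the Spp1 values was not tested.

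Thbs1 (thrombospondin 1, an activator of latent transforming growth factor beta) went the other way, with 37.7, 62.7, 71.3, 91 and 43.6 TPM in LFABP-/- iWAT and 32.9, 23.2, 29.3, 36 and 29.4 TPM in WT iWAT. Every LFABP-/- library was above every WT library, and the difference of 0.95 (SE 0.23) was not called (limma adjusted p = 0.121, exact permutation p = 0.00794). The highest LFABP-/- values were those of replicates 2 to 4, which held the most lymphocyte transcripts of that group. Without the 5 lymphocyte-rich libraries the difference was 0.52 (limma adjusted p = 0.373), and with lymphocyte markers as a covariate 0.81 (0.026). The part of these transcripts in the Thbs1 values was not tested. Of its relatives, Thbs2 averaged 35.6 ± 10.3 TPM in LFABP-/- and 45.2 ± 9.05 TPM in WT, and Thbs3 10.6 ± 2.86 TPM in LFABP-/- and 11.1 ± 1.45 TPM in WT. Sparc, a collagen-binding matricellular protein that adipocytes secrete, was the most abundant member and had 5721.5, 2388.5, 3422.5, 3837.1 and 3947.6 TPM in LFABP-/- and 5508.8, 4538.9, 4624.7, 2041.5 and 2933.2 TPM in WT iWAT. It held 61.9% of the members' summed TPM in LFABP-/- and 57.3% in WT iWAT, so a sum over the members follows Sparc. Fn1 (fibronectin) spread from 35.4 to 120.4 TPM in LFABP-/- and from 62.2 to 115.4 TPM in WT, Tnc (tenascin C) from 2.8 to 7.7 TPM in LFABP-/- and from 3.5 to 17.2 TPM in WT, and Matn2 (matrilin 2) from 21.7 to 68.3 TPM in LFABP-/- and from 25.9 to 55.7 TPM in WT, none of them called.

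**Figure D3:**
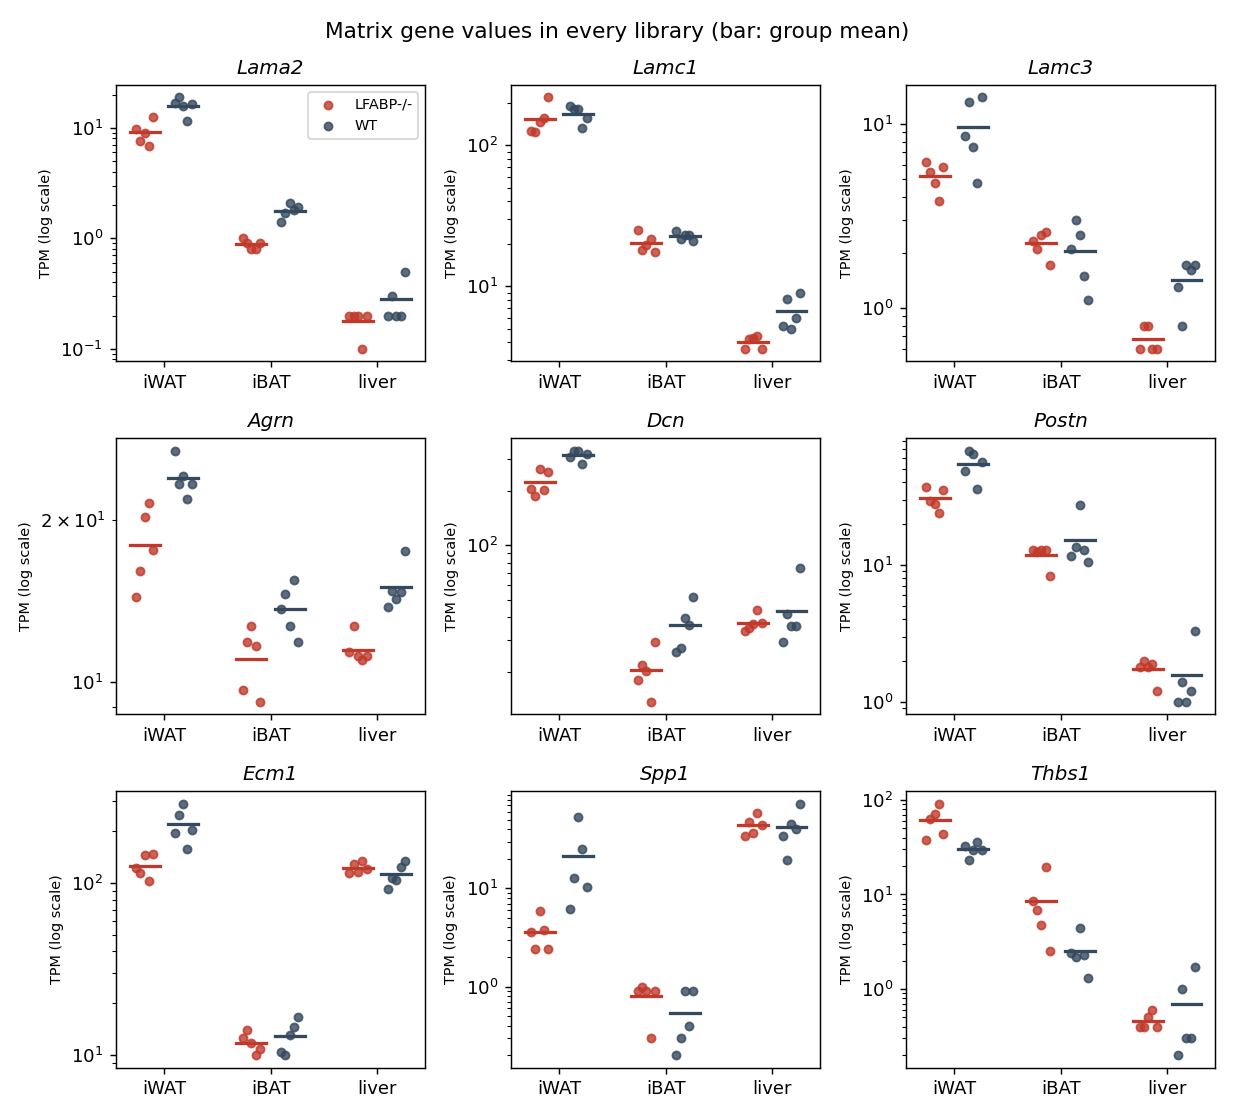
TPM on a log axis in every library for 9 of the genes, by tissue, with LFABP-/- libraries in red to the left of WT libraries in dark grey and a bar at each group's mean. In iWAT the groups do not overlap for Agrn, Dcn, Ecm1, Spp1 and Thbs1; in iBAT they do not overlap for Lama2, and in liver for Lamc1 and Agrn.

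The DNA around the transcription start is shown for 3 of the genes called lower in iWAT and for Agrn, which was the lowest in p of the members in liver. RefSeq holds starts for 24 of the 35 genes in its GRCm38.p6 table; Dcn, Thbs1, Fn1, Lamc1, Lamc3 and 6 others are not in it. Each run covers 250 bases before to 50 bases after the start, 5′ to 3′ on the gene's strand, with capitals for 3 motifs on either strand: the TATA box (TATAAA), the GC box that Sp factors bind (GGGCGG) and the AP-1 site (TGANTCA).
Lama2 (chr10:27616893-27617192, - strand): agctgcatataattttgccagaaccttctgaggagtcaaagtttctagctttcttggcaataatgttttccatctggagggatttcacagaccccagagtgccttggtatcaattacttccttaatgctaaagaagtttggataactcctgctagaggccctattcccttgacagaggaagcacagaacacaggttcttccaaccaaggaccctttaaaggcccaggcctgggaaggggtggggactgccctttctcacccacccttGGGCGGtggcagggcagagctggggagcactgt
Postn (chr3:54360857-54361156, + strand): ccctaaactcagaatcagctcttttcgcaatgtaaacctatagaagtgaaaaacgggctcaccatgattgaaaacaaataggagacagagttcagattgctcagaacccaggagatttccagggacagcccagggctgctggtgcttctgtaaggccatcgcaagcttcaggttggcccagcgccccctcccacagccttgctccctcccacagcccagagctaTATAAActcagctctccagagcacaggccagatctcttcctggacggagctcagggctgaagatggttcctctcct
Ecm1 (chr3:95739520-95739819, - strand): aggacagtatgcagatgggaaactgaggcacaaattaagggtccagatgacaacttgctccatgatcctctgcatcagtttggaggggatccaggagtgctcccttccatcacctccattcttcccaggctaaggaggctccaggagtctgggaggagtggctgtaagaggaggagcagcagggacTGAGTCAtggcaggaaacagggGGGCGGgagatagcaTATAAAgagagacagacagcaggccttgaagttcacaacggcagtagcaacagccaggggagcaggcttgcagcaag
Agrn (chr4:156197439-156197738, - strand): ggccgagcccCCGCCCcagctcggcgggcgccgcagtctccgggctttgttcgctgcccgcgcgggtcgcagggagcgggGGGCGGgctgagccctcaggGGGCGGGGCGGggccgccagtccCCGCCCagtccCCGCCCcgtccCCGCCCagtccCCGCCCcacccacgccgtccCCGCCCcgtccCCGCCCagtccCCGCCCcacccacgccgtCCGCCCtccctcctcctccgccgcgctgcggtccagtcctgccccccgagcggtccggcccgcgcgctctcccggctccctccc
The 4 starts differ in kind. Agrn has 12 GC boxes, some overlapping each other, no TATA box and a GC content of 83.3%, whereas Postn has a TATA box and no GC box at 53% GC, Ecm1 has 1 match to each of the 3 motifs, and Lama2 has a single GC box at 50.3% GC. Over the 24 members in the table, 6 held a TATA box, 14 a GC box and 2 an AP-1 site, against 13.6%, 35.7% and 7.81% of all 32851 starts listed. These are matches of letters and not measured sites, and the gene-level TPM does not show which start was used; for Lama2 the RefSeq start lies 2816 bases from the gene end given in the deposited table.

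The neighbouring matrix genes of iWAT gave few calls, in a tissue where 0.682% of all genes tested were called higher and 0.77% lower. At an unadjusted limma p under 0.05, 5.39% of all genes were higher and 4.99% lower. Of 16 other basement membrane genes tested, among them the collagen IV chains, 0 were called (median -0.10, 2 lower at an unadjusted limma p under 0.05), and the smallest p belonged to Col4a5 (-0.76, SE 0.22, limma adjusted p = 0.191). Of 17 other elastic fibre genes 0 were called (median -0.14, 4 lower unadjusted, with Ltbp1 at -0.42 and Loxl2 at -0.60), and of 11 other matricellular genes 0 (median 0.10, 2 higher and 1 lower unadjusted, with Ccn1 at 1.17, limma adjusted p = 0.123). Of 11 genes grouped with the other proteoglycans, not all of which encode proteoglycans, 1 was lower. It was Srpx (-0.72, SE 0.16, limma adjusted p = 0.0911), which is not itself a proteoglycan gene. Of 30 matrix receptors 2 were higher, Sdc4, the heparan sulfate proteoglycan syndecan 4 (1.43, SE 0.18, limma adjusted p = 0.0107), and Ddr1, a collagen receptor (1.04, SE 0.23, limma adjusted p = 0.0853).

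Fibroblast and progenitor markers moved in the direction of the matrix genes. The list, used in each tissue, itself holds the collagen genes Col1a1, Col1a2 and Col3a1, so it is not independent of matrix expression. In iWAT 13 of 14 tested were negative, against 39.4% of all genes, with a median of -0.37, and 2 were called lower. The sum of the 15 listed was 3035 to 4874 TPM in LFABP-/- and 3572 to 6268 TPM in WT iWAT. Their part in the matrix values was not tested, and in bulk tissue fewer cells of a type and less RNA in each cell cannot be told apart. Skeletal muscle markers summed to 149.5 to 6411 TPM in LFABP-/- and 127.4 to 991.3 TPM in WT iWAT, and with their mean as a covariate 0 members were called, whereas with lymphocyte markers as a covariate 10 were lower and 1 was higher. Brown adipocyte markers were positive in 10 of 10 in iWAT with 0 called (median 1.17), and summed to 368.6 to 2994 TPM in LFABP-/- and 230.6 to 822.2 TPM in WT iWAT. The highest sum was that of LFABP-/- replicate 2, the library with the lowest value of the 10 for 14 of the 35 members, and the part of brown adipocyte transcripts in the matrix values was not tested. Without the 5 libraries with the most lymphocyte transcripts 0 members were called.

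In iBAT, 7 members were lower in LFABP-/- mice (Lama2, Lama4, Agrn, Dcn, Lum, Fbln1 and Thbs3) and 2 were higher (Thbs1 and Matn2). Lama3, Fmod, Vcan and Spp1 had means under 1 TPM and were not tested. The 7 are 22.6% of the 31 members tested, close to the 25.5% of 11614 genes that were called lower, whereas the 2 are 6.45%, against 22.3% of genes called higher. The median log2 difference was -0.11 over the members and -0.03 over all genes.

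Lama2 had the smallest adjusted p of them, at values near the rounding step. It averaged 0.88 TPM in LFABP-/- and 1.78 TPM in WT iBAT, and passed the filter of 1 TPM through the WT libraries. With no filter its limma adjusted p was 0.000909. It had 1.0, 0.9, 0.8, 0.8 and 0.9 TPM in LFABP-/- iBAT against 1.4, 1.7, 2.1, 1.8 and 1.9 TPM in WT iBAT, with no overlap (log2 difference -0.72, SE 0.10, limma adjusted p = 0.000604). It was the single member without overlap in iBAT, where 14.3% of all genes lay wholly lower. Leaving out 1 library gave adjusted p between 0.000654 and 0.0025, and the difference was -0.61 within G30 and -0.82 within G32. Its share of alpha chain TPM was 6.27 ± 1.5% in LFABP-/- and 9.99 ± 2.08% in WT iBAT. Lama4 had 10.9, 4.7, 7.3, 9.7 and 8.0 TPM in LFABP-/- and 11.9, 12, 11.8, 11.6 and 8.8 TPM in WT iBAT (-0.48, SE 0.19, limma adjusted p = 0.0681). Lama4 was not called without LFABP-/- replicate 3 (adjusted p = 0.125) or without any 1 of WT replicates 1 to 4.

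Agrn had 9.7, 11.9, 12.7, 11.7 and 9.2 TPM in LFABP-/- iBAT and 13.7, 14.6, 12.7, 15.5 and 11.9 TPM in WT iBAT. The groups overlapped between 11.9 and 12.7 TPM, and the difference was -0.30 (SE 0.10, limma adjusted p = 0.0408), between 0.0284 and 0.0961 when 1 library was left out. Lamb1 had 40.7, 28.8, 30.3, 29.2 and 20.9 TPM in LFABP-/- and 33, 37.8, 26.3, 27.5 and 29 TPM in WT iBAT, Hspg2 31.2, 34.3, 37.3, 39.6 and 25.4 TPM in LFABP-/- and 36.4, 39.1, 37.1, 31.3 and 24.7 TPM in WT, and Nid1 32.4, 27, 27, 33.1 and 20.4 TPM in LFABP-/- and 24.4, 23, 27.1, 19.3 and 23.3 TPM in WT. These 3 were not called, and LFABP-/- replicate 5 was the lowest LFABP-/- library in each.

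The proteoglycans Dcn and Lum fell together in iBAT. Dcn had 17.9, 21.7, 20.2, 13.6 and 29.2 TPM in LFABP-/- and 25.8, 26.9, 39.7, 36.1 and 51.6 TPM in WT iBAT (-0.79, SE 0.23, limma adjusted p = 0.0192), and LFABP-/- replicate 5 was the one LFABP-/- library inside the WT range. Lum had 4.8, 5.3, 5.4, 3.8 and 6.8 TPM in LFABP-/- and 6.7, 5.9, 15.2, 8.5 and 9.9 TPM in WT iBAT (-0.71, SE 0.23, limma adjusted p = 0.0326). Ogn averaged 5.2 ± 1.64 TPM in LFABP-/- and 7.74 ± 3.46 TPM in WT, and Bgn 15.6 ± 2.75 TPM in LFABP-/- and 16.6 ± 5.05 TPM in WT, neither of them called.

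Of the elastic fibre genes, Fbln1 had 1.7, 2.0, 1.4, 0.7 and 2.4 TPM in LFABP-/- and 1.8, 1.9, 3.2, 2.6 and 3.8 TPM in WT iBAT (-0.58, SE 0.25, limma adjusted p = 0.0942). It was called in 4 of the 10 fits that left out 1 library, with the lowest adjusted p (0.0509) when LFABP-/- replicate 5 was left out and the highest (0.191) when WT replicate 5 was. Fbln2, Fbln5, Fbn1 and Eln were not called, and Eln was at 17 TPM in WT replicate 3 against 7.0 to 9.3 TPM in the other WT libraries.

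Thbs1 was higher in LFABP-/- iBAT, with 8.6, 6.8, 4.8, 19.7 and 2.5 TPM against 2.4, 2.2, 4.4, 2.3 and 1.3 TPM in WT iBAT (1.36, SE 0.45, limma adjusted p = 0.0363). LFABP-/- replicate 4 held the highest value and replicate 5 lay inside the WT range, and without replicate 4 the difference was 0.99 (adjusted p = 0.0533). Matn2, a filament-forming adaptor of the matrix, had 4.9, 3.8, 3.7, 3.8 and 2.9 TPM in LFABP-/- and 2.5, 2.2, 3.8, 2.1 and 2.0 TPM in WT iBAT (0.53, SE 0.16, limma adjusted p = 0.0266). Thbs3 had 1.0, 1.0, 1.1, 1.1 and 1.5 TPM in LFABP-/- and 1.0, 1.3, 2.5, 1.8 and 2.2 TPM in WT iBAT (-0.43, SE 0.19, limma adjusted p = 0.0989), values near the rounding step of the table, and its adjusted p was 0.0249 when WT replicate 1 was left out and 0.209 when WT replicate 3 was. Sparc had 447.6, 460.3, 374, 467.6 and 304.5 TPM in LFABP-/- and 379.9, 370, 470.6, 334.1 and 295.5 TPM in WT iBAT and was not called.

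Markers of other cell types also differed in iBAT, where 22.3% of all genes tested were called higher and 25.5% lower. The log2 difference was negative for 54.4% of all genes tested. All 14 hepatocyte markers tested were called higher in LFABP-/- iBAT (median 4.05), and the 15 listed summed to 242.7 to 2474 TPM in LFABP-/- and 8.6 to 129.9 TPM in WT iBAT. Without LFABP-/- replicates 1 to 3, where these were highest, Lama2 (-0.75, limma adjusted p = 0.0198) and Agrn (-0.38, adjusted p = 0.0984) were still called lower, and 0 members were called higher, with Thbs1 at 1.44 (adjusted p = 0.201). Fibroblast markers were negative in 12 of 13 tested, with 4 called lower and a sum of 202.4 to 265.7 TPM in LFABP-/- and 247.4 to 497.4 TPM in WT iBAT, and smooth muscle and pericyte markers were negative in 9 of 10, with 6 called lower and sums of 133.9 to 155.1 TPM in LFABP-/- and 175 to 208.6 TPM in WT iBAT. Skeletal muscle markers were negative in 25 of 25 with 2 called lower, and summed to 338.3 to 21280 TPM in LFABP-/- and 1915 to 48960 TPM in WT iBAT. Endothelial markers were negative in 9 of 10, with 5 called lower and a median of -0.34, and summed to 147.4 to 236.7 TPM in LFABP-/- and 185.7 to 263.7 TPM in WT iBAT. Of 12 adipocyte markers 5 were called lower and 1 higher, with sums of 6345 to 8423 TPM in LFABP-/- and 8054 to 9171 TPM in WT iBAT. The part of the fibroblast, pericyte, endothelial and adipocyte transcripts in the matrix values, that of Lama4 among them, was not tested.

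Other matrix genes of iBAT changed in both directions, in a tissue where 22.3% of all genes tested were called higher and 25.5% lower. Among 14 other basement membrane genes 4 were higher, Col18a1 (0.84), Ntn1 (0.59), Col4a5 (0.57) and Tinagl1 (0.40), and 3 lower, Smoc2 (-0.70), Egfl7 (-0.50) and Pxdn (-0.40). Among 15 other elastic fibre genes 0 were higher and 4 lower, of which Loxl1, a crosslinking enzyme, had the smallest p (-0.48, SE 0.05, limma adjusted p = 0.000136). Among 8 genes grouped with the other proteoglycans 2 were higher, Ncan (0.92) and Prg4 (0.57), and 3 lower, Podn (-1.11), Ecm2 (-0.86) and Srpx (-0.69). Of 9 other matricellular genes Vtn (1.68) was higher and Mgp (-0.79) and Sparcl1 (-0.46) were lower, and of 26 matrix receptors 4 were higher, led by Sdc4 (0.96), and 9 lower, among them Dag1 (-0.57), the dystroglycan that binds laminin alpha2 and agrin.

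In liver, 5 members were lower in LFABP-/- mice and 0 higher (0 also at an unadjusted limma p under 0.05, against 5.82% of all genes). They were Lamc1, Lamc3, Agrn, Fn1 and Tnxb, 22.7% of the 22 members tested, against 13.9% of 11629 genes called lower and 3.08% called higher. The median log2 difference was -0.34 over the members and -0.10 over all genes. Of the 22 members 18 were negative, against 67.2% of all genes tested. Lamc3, Eln and Thbs2 averaged under 1 TPM in LFABP-/- liver and passed the filter through the WT libraries. With no filter the median was -0.31 over 35 members and -0.06 over all genes. With median-ratio scaling the median over all genes was 0 and that over the members -0.23, and Lamc1, Lamc3, Agrn and Tnxb were called but not Fn1. That scaling turned the split over all genes from 358 higher and 1611 lower to 1158 higher and 834 lower.

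Lamc1 had 3.6, 4.2, 4.3, 4.4 and 3.6 TPM in LFABP-/- liver against 5.2, 8.1, 5.0, 6.0 and 8.9 TPM in WT liver, with no overlap (-0.63, SE 0.15, limma adjusted p = 0.0322). Lamc3 had 0.6, 0.8, 0.8, 0.6 and 0.6 TPM in LFABP-/- and 1.3, 0.8, 1.7, 1.6 and 1.7 TPM in WT liver (-0.68, SE 0.17, limma adjusted p = 0.0326), where WT replicate 2 lay at the top of the LFABP-/- range. Lamc3 fell under the mean of 1 TPM, and so was not tested, without WT replicate 3, 4 or 5. The alpha chains Lama2 to Lama5 stayed at or under 1.3 TPM in every liver library and were not tested, and Lamb1, Lamb2 and Lamb3 averaged 1.88 ± 0.179, 2.66 ± 0.404 and 2.42 ± 0.904 TPM in LFABP-/- and 2.52 ± 0.766, 2.88 ± 0.602 and 1.72 ± 0.421 TPM in WT liver.

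Agrn had 11.4, 12.7, 11.2, 11 and 11.2 TPM in LFABP-/- liver against 13.8, 14.8, 14.3, 14.7 and 17.5 TPM in WT liver. The groups did not overlap (-0.37, SE 0.08, limma adjusted p = 0.022, exact permutation p = 0.00794). LFABP-/- replicate 2 and WT replicate 5 each lay above the rest of their group. The difference was -0.24 within G30 and -0.51 within G32, and leaving out 1 library gave adjusted p between 0.0268 and 0.0602. Lamc1 and Agrn were the 2 tested members without overlap in liver, where 8.63% of all genes lay wholly lower. Nid1, Nid2 and Hspg2 were not called, and Nid1 read 12.4 TPM in WT replicate 5 against 4.1 to 7.4 TPM in the other WT livers.

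Fn1, which hepatocytes secrete into plasma, was the most abundant member in liver. It had 252.9, 236.7, 246.6, 195.3 and 189.9 TPM in LFABP-/- liver and 345, 309.9, 345, 297.2 and 217.6 TPM in WT liver (-0.42, SE 0.14, limma adjusted p = 0.079), and WT replicate 5 was the one WT library inside the LFABP-/- range. Without LFABP-/- replicate 2, 4 or 5 or without WT replicate 1, 2, 3 or 4 the call was lost (adjusted p up to 0.173). Tnxb had 2.1, 1.8, 2.5, 2.7 and 2.6 TPM in LFABP-/- and 2.5, 4.1, 3.6, 3.6 and 5.7 TPM in WT liver (-0.60, SE 0.18, limma adjusted p = 0.0555), and was not called without LFABP-/- replicate 1 or 2 (adjusted p = 0.109 for each) or WT replicate 2 (0.137).

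The other abundant liver members did not differ beyond their spread. Ecm1 had 114.3, 128.2, 116.1, 133.6 and 120.2 TPM in LFABP-/- and 91.9, 106.8, 103.8, 123.4 and 134.9 TPM in WT liver. Spp1, which bile duct cells also express, had 33.8, 47.1, 37, 58.5 and 44.2 TPM in LFABP-/- and 34.1, 19.4, 45.4, 40.3 and 72.7 TPM in WT liver. Dcn had 33.5, 34.9, 36.5, 44 and 37.3 TPM in LFABP-/- and 29.1, 41.4, 35.9, 35.9 and 74.5 TPM in WT liver, and Sparc 36.9, 37.3, 37, 49.5 and 40.2 TPM in LFABP-/- and 26.6, 48.6, 34.4, 35.7 and 101 TPM in WT liver. WT replicate 5 held the highest value of each of these 4 genes.

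Bgn (-0.56, SE 0.22, limma adjusted p = 0.125) had 26.2, 27.3, 26.7, 21.7 and 22.5 TPM in LFABP-/- and 26, 39.5, 33.8, 28.4 and 67.3 TPM in WT liver. Fbln5 (-0.49, SE 0.20, limma adjusted p = 0.14) had 1.0, 1.0, 1.4, 1.5 and 1.2 TPM in LFABP-/- and 1.2, 1.8, 2.2, 1.5 and 3.2 TPM in WT liver. Neither was called, and both were highest in WT replicate 5. Fbln1 was not tested for its low mean, and had 0.4 to 0.6 TPM in LFABP-/- and 0.7 to 2.6 TPM in WT liver.

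WT liver replicate 5 had the highest value of the 10 livers, ties included, for 20 of the 22 members tested, at a median of 1.69 times the median of the other WT livers. Fibroblast markers summed to 75.2 to 89.8 TPM in LFABP-/- and 80 to 229 TPM in WT liver, stellate cell markers to 106.5 to 118.1 TPM in LFABP-/- and 96.1 to 242.3 TPM in WT, and macrophage markers to 540.2 to 693.1 TPM in LFABP-/- and 497.9 to 1434 TPM in WT, each with WT replicate 5 at the top. Without that library 20 members were tested, the median over them was -0.18 (-0.05 over all genes), Lamc1 (-0.52), Agrn (-0.31), Fn1 (-0.54) and Tnxb (-0.47) were called lower and Postn was called higher. Fibroblast markers were negative in 10 of 11 tested with 0 called, and stellate cell markers in 10 of 10 with 1 called lower, against 67.2% of all genes negative. Their part in the liver values was not tested.

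**Figure D4:**
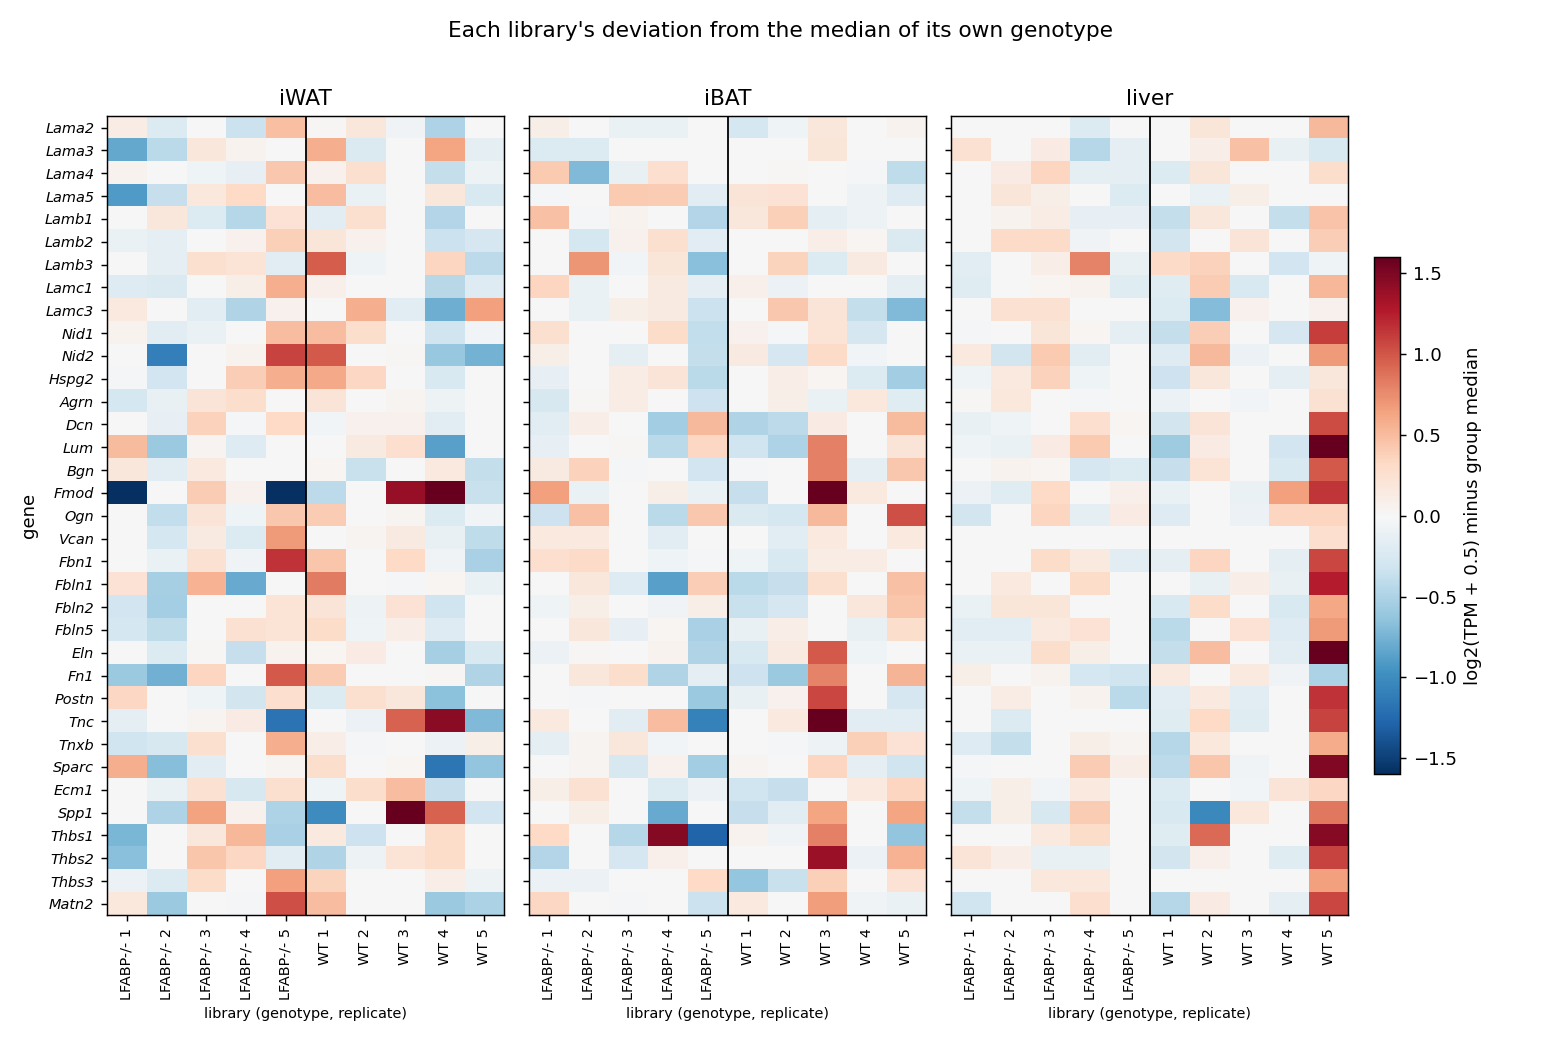
Deviation of each library (columns, LFABP-/- left of WT in each tissue) from the median of its own genotype for the 35 genes (rows), as log2(TPM + 0.5) in color. WT liver replicate 5 is red down most of its column, WT iBAT replicate 3 is red for Fmod, Tnc, Thbs2, Postn and Eln, and LFABP-/- iWAT replicate 5 is high for Fbn1, Nid2, Fn1 and Matn2.

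Among other matrix genes of liver, 1 of 13 basement membrane genes was higher, Tinagl1 (0.40, SE 0.09, limma adjusted p = 0.0218), and 0 were lower. Of all genes tested in liver 3.08% were called higher and 13.9% lower. At an unadjusted limma p under 0.05, 5.82% were higher and 22.1% lower. Loxl1 (-0.92) and Loxl3 (-0.48) were the 2 of 10 elastic fibre genes called, and Podn (-0.64) the 1 of 5 genes grouped with the proteoglycans. Itga3 (-0.30), Itgav (-0.27) and Itga5 (-0.36), integrin alpha chains, were the 3 of 23 receptors. All of these genes were lower. Of 6 other matricellular genes 0 were called, adjusted or unadjusted (median -0.15), with Ccn1 (0.56, limma adjusted p = 0.28) lowest in p.

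Agrn had log2 differences of -0.37 in liver, -0.30 in iBAT and -0.41 in iWAT. The genotype effects of the tissues were set against each other in a joint limma model of 30 libraries, in which libraries of 1 mouse were allowed to correlate, over 13925 genes and 34 members. For Agrn the effect in iBAT minus that in iWAT was 0.11 (SE 0.14, adjusted p = 0.705), in liver minus iWAT 0.04 (SE 0.14, 0.904) and in liver minus iBAT -0.07 (SE 0.14, 0.849). In this fit, which shares 1 estimate of the spread over all tissues, Agrn was called lower in each tissue (adjusted p = 0.0285 in liver, 0.0297 in iBAT and 0.0191 in iWAT). Lama2 had like differences in iBAT and iWAT (0.06, SE 0.20, adjusted p = 0.89).

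For the effect in iBAT minus that in iWAT, 3 members differed upward, against 5.39% of all genes, and 0 downward, against 6.48%. They were Spp1 (2.43, SE 0.56, adjusted p = 0.00799), Ecm1 (0.66, SE 0.21, 0.0514) and Lamc3 (0.90, SE 0.32, 0.084). For liver minus iWAT, Ecm1 (0.91, SE 0.21, 0.0212) and Spp1 (2.24, SE 0.56, 0.0356) differed, against 0.969% of all genes upward, and 0 members downward, against 2.63%. Spp1 read 0.9, 1.0, 0.9, 0.3 and 0.9 TPM in LFABP-/- iBAT and 0.2, 0.3, 0.9, 0.4 and 0.9 TPM in WT iBAT. The hepatocyte markers' share of their liver level, applied to Spp1, gives 0.565, 0.821, 0.697, 0.138 and 0.0821 TPM in LFABP-/- iBAT replicates 1 to 5. In WT iBAT replicates 1 to 5 it gives 0.0227, 0.00114, 0.00161, 0.0147 and 0.0303 TPM. The part of liver transcripts in the Spp1 values was not tested. An alternative chosen after seeing the data left out the iBAT libraries of LFABP-/- replicates 1 to 3. With it 0 members differed between iBAT and iWAT, with Spp1 at 2.17 (adjusted p = 0.141), Ecm1 at 0.50 (0.444) and Lamc3 at 0.83 (0.411). For liver minus iBAT, Lama2 (0.53, SE 0.20, 0.0828) differed upward, against 5.21%, and Thbs1 (-1.53, SE 0.51, 0.0503), Fbln5 (-0.64, SE 0.24, 0.085) and Lamc3 (-0.83, SE 0.32, 0.0885) downward, against 11.5%. Lama2 and Thbs1 read at most 0.5 and 1.7 TPM in liver, and the part of these low values in the 2 differences was not tested. Without the same 3 iBAT libraries 0 members differed between liver and iBAT, with adjusted p of 0.211 to 0.495 for these 4.

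Across the tissues of WT mice most members were highest in iWAT. In WT iBAT 34 of 34 members tested were lower than in WT iWAT, but so were 84.6% of all genes (median of all genes -1.35). Mitochondrially encoded transcripts took 54.4% to 60.1% of WT iBAT TPM and 13.3% to 20.6% of WT iWAT TPM. The members' median was -2.84, and with median-ratio scaling over the 30 libraries (median of all genes -0.07) 31 of 33 were lower with a median of -1.56, while Agrn (0.59) and Lamb3 (0.50) turned to higher. After rescaling without mitochondrial and the 10 most abundant genes the median of all genes was -0.49 and 33 of 35 members were lower, with Agrn (0.17) and Lamb3 (0.15) not called. In iBAT Thbs2 was the lowest relative to iWAT (-4.54, SE 0.26), with Nid2 at -4.25 (SE 0.29), and Agrn (-0.79, SE 0.10) and Lamb3 (-0.71, SE 0.23) were the least lowered.

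In WT liver 32 members were lower than in WT iWAT, against 77.6% of all genes, and 2 were higher, against 13.7%. The higher ones were Fn1 (1.79, SE 0.27) and Spp1 (1.24, SE 0.39), and with median-ratio scaling Agrn (0.59) and Ecm1 (0.34) joined them. Sparc was the farthest down, at -6.38 (SE 0.28), with 49.3 ± 29.98 TPM in WT liver and 3929 ± 1406 TPM in WT iWAT (SD, n = 5 each). Between WT liver and WT iBAT, Spp1 (5.30, SE 0.39), Fn1 (5.20, SE 0.27), Ecm1 (3.08, SE 0.15) and Bgn (1.17, SE 0.20) were higher in liver and 23 members lower, against 40.1% and 33.6% of all genes. After the same rescaling, which moved the median of all genes from 0.11 to -0.71, 29 of 35 members were lower and Bgn was not called (0.28, adjusted p = 0.181). Dcn (0.23, SE 0.20), Nid2 (0.15, SE 0.29) and Agrn (0.13, SE 0.10) were among the 7 that were not called. The summed TPM of the 35 genes was 0.0545% of the total in LFABP-/- liver and 0.0662% in WT liver, 0.0714% in LFABP-/- and 0.0705% in WT iBAT, and 0.615% in LFABP-/- and 0.669% in WT iWAT.

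**Figure D5:**
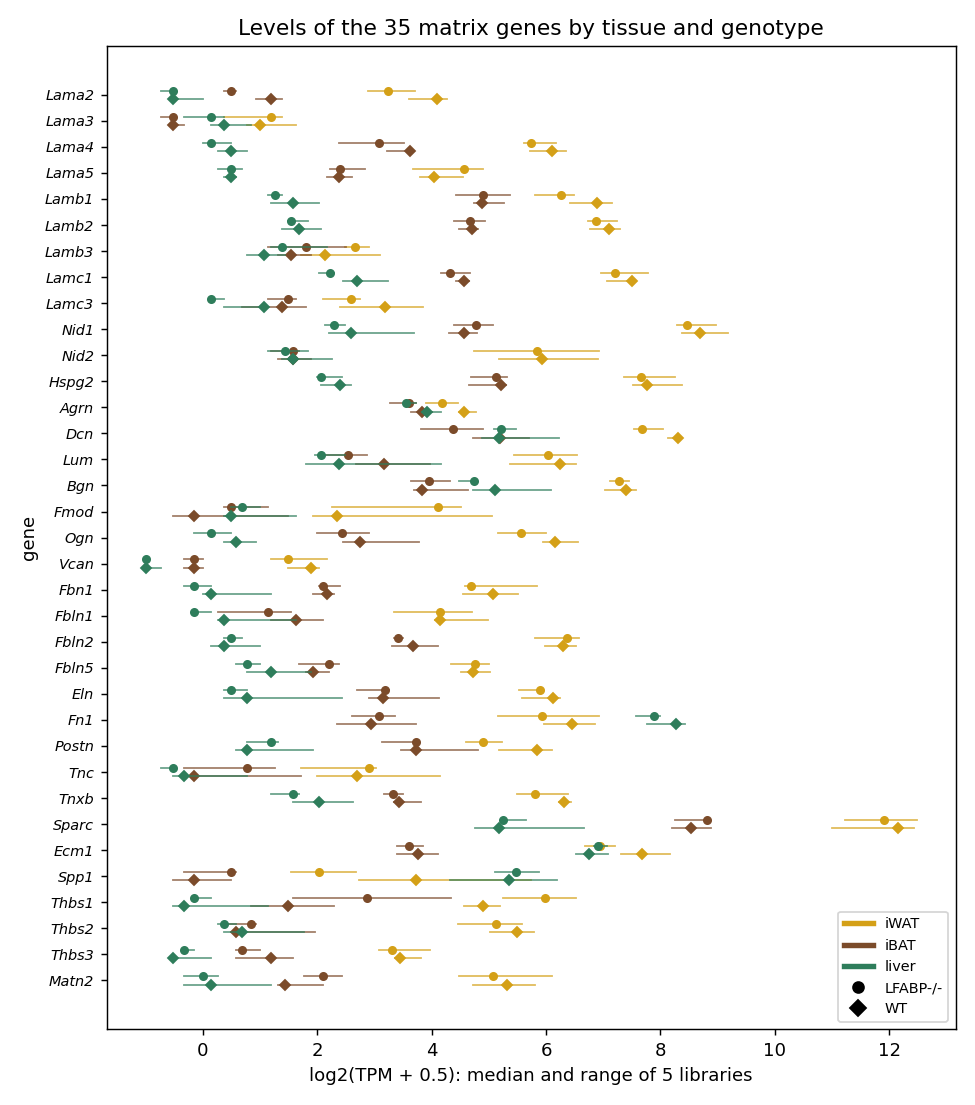
Median and range over 5 libraries of log2(TPM + 0.5) (x axis) for the 35 genes in iWAT, iBAT and liver, with circles for LFABP-/- and diamonds for WT mice. Most genes are highest in iWAT; Fn1 and Spp1 are highest in liver, and Ecm1 in liver lies far above iBAT.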

How the data were processed

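Poly(A) RNA of iWAT, iBAT and liver from 5 LFABP-/- and 5 WT mice was sequenced as single reads; the replicates are separate mice. With CLC Genomics Workbench, the authors aligned reads to GRCm38 and Ensembl genes, and they deposited 1 table of 41549 genes whose headers name RPKM. As deposited by the authors, the values are on the TPM scale, since each library sums to between 999967 and 999996. The depth per library is unknown, so the precision rests on the spread between mice, and no counting interval is given. The strand of counting is not given in the sources used here: by GENCODE M21, Lama2 shares 3.86% of its exon bases with an antisense gene, Lamc3 6.27%, Thbs3 6.59%, Thbs1 3.42%, Fn1 2.5% and Fbn1 20.1%, and Spp1 18.8% with a gene on its own strand, and reads there cannot be told apart.

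The member genes and the gene lists were chosen with earlier results of these data known. Genes with a mean of at least 1 TPM in a tissue were fitted on log2(TPM + 0.5) with limma 3.58.1 (intensity trend) in R 4.3.3 and called at an adjusted p under 0.1. Exact permutation tests were added for single genes. Differences between tissues came from a joint fit of 30 libraries that estimates the correlation within a mouse (statmod 1.5.0). The procedure was tested on simulated data. Values per library are given for members called, for members at an unadjusted p under 0.05 and for the 5 most abundant members in each tissue; in the other lists, called genes and those with the smallest p are named. Alternatives were pseudocounts of 0.1 and 1, no filter, a filter at 20, median-ratio scaling, rescaling without mitochondrial and the 10 most abundant genes, no trend, a term for the prefix, marker covariates, a replicate block and each library left out. For WT replicates 4 and 5 and LFABP-/- replicate 2 in iWAT, the prefix of the mouse's other tissues was used. Promoter sequences came from RefSeq (GRCm38.p6), and the DNA after the start was found in a transcript of the gene for 21 of 24. Figures were drawn with Python 3.11.15 and matplotlib 3.10.9.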

Additional observations from a re-analysis of the deposited data

Results flagged for a closer look

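Dixon's test of the highest and lowest library was run in 176 groups of 5 and marked 21, where chance gives about 1 in 20 groups, or 8.8. WT liver replicate 5 was high for 6 genes, Agrn (17.5 TPM), Dcn (74.5 TPM), Lum (17.4 TPM), Eln (4.9 TPM), Postn (3.3 TPM) and Thbs2 (2.9 TPM). WT iBAT replicate 3 was high for 4 genes, Eln (17 TPM), Postn (27.4 TPM), Tnc (2.8 TPM) and Matn2 (3.8 TPM). LFABP-/- replicate 5 was high for Lama4 (71.3 TPM) and Fbn1 (57 TPM) and low for Tnc (2.8 TPM) in iWAT, low for Postn (8.3 TPM) and high for Thbs3 (1.5 TPM) in iBAT, and low for Postn (1.2 TPM) in liver. In liver, LFABP-/- replicate 4 was high for Lamb3 (4.0 TPM) and Sparc (49.5 TPM), and LFABP-/- replicate 2 for Agrn (12.7 TPM). WT replicate 1 was high for Fbln1 in iWAT (31.1 TPM), and WT replicate 5 low for Lama4 in iBAT (8.8 TPM).

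The genotype effect differed between tissues for 9 gene and tissue pairs by the limma interaction. The effect in iBAT minus that in iWAT was 0.90 for Lamc3, 0.66 for Ecm1 and 2.43 for Spp1, and the effect in liver minus that in iWAT was 0.91 for Ecm1 and 2.24 for Spp1. The effect in liver minus that in iBAT was 0.53 for Lama2, -0.83 for Lamc3, -0.64 for Fbln5 and -1.53 for Thbs1. Of all genes, 5.39% differed upward and 6.48% downward for iBAT minus iWAT. The shares were 0.969% and 2.63% for liver minus iWAT, and 5.21% and 11.5% for liver minus iBAT. Without the iBAT libraries of LFABP-/- replicates 1 to 3, 0 members differed in the comparisons with iBAT.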

How the results depend on the processing

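The genotype differences of members that were tracked across alternatives, and their differences between tissues, kept their direction in each; tissue differences in WT mice did not. In iWAT, 213 genes and 4 lower members were called. The gene count was 135 with no filter, 135 at a mean of at least 20, 101 with median-ratio scaling, 805 in 1 fit of all 30 libraries, 1282 with a lymphocyte and 54 with a skeletal muscle covariate, and 6 without the 5 lymphocyte-rich libraries. The lower members were 0 with no filter, median-ratio scaling, the prefix term, the skeletal muscle covariate or those 5 libraries left out, 1 without the intensity trend, 8 in the 30-library fit and 10 with the lymphocyte covariate. Thbs1 was the 1 higher member at a mean of at least 20, with median-ratio scaling and with the lymphocyte covariate. Leaving out 1 library gave 51 to 318 genes, 0 to 6 lower and 0 to 1 higher members.

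In iBAT, the 5556 genes became 1391 at a mean of at least 20 and 2865 without LFABP-/- replicates 1 to 3, an alternative chosen after seeing the data, as were the same libraries left out of the differences between tissues, the skeletal muscle covariate in iBAT and the rescaling of tissue differences. Lower members were 1 and 2 under these 2 settings and higher members 0 and 0, and 1 member was higher in the 30-library fit. Leaving out 1 library gave 4880 to 5834 genes, 4 to 7 lower and 2 to 5 higher members, with 4 lower without WT replicate 4 and 5 higher without LFABP-/- replicate 5 (Lamb3, Fbln5 and Nid1 besides Thbs1 and Matn2). In liver, the 1969 genes became 564 at a mean of at least 20, with 1 lower member, and leaving out 1 library gave 746 to 2150 genes, 3 to 6 lower and 0 to 1 higher members, with 3 lower without LFABP-/- replicate 2 or WT replicate 2 or 3. Of called genes 18.2% were higher in liver, against 58.1% with median-ratio scaling and 29.3% at a mean of at least 20, and 46.7% in iBAT, against 62% at a mean of at least 20. For liver minus iBAT, 4 member effects differed, 2 with a pseudocount of 1 and 0 without the iBAT libraries of LFABP-/- replicates 1 to 3; for iBAT minus iWAT, 3 differed and 0 without them. For the tissue differences in WT mice, median-ratio scaling over 30 libraries turned Agrn (0.59) and Lamb3 (0.50) upward for iBAT minus iWAT and Agrn (0.59) and Ecm1 (0.34) for liver minus iWAT. Rescaling without mitochondrial and the 10 most abundant genes turned Agrn (0.17) and Lamb3 (0.15) for iBAT minus iWAT, not called, and left 33 members lower in iBAT; the cause was not tested.

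With the replicate number as a block, iWAT had 248 genes and 6 lower members called, iBAT had 5661 and 8, and liver had 1258 and 5. The numbers did not pair the LFABP-/- and WT mice: same-numbered libraries correlated at -0.33 to 0.67 (iWAT), -0.53 to 0.51 (iBAT) and -0.06 to 0.13 (liver). Rounding to 1 decimal limits members under about 1 TPM, and depth is unknown.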
